A study of Solanum lycopersicum with 3 samples.

Results

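The miRNAs numbered miR6022 to miR6027 were followed in tomato (Solanum lycopersicum) ovaries. They were picked by a rule on names, as every listed mature sequence of tomato whose name falls in the run from miR6022 to miR6027. The rule itself was set with earlier results of these data known. It gave 6 of the 634 miRNAs in the counts, of which 125 were known and 509 predicted. The 6 were sly-miR6022, sly-miR6023, sly-miR6024, sly-miR6026 and both arms of one precursor, sly-miR6027-3p and sly-miR6027-5p. No count was listed for miR6025. Ovaries of the cultivar UC82 were sequenced before anthesis, as 1 library per condition from 1 pool of ovaries each. AGL6sil and IAA9sil came from flower buds injected in the pedicel with 5 µg of dsRNA per ovary against AGL6 or IAA9, bound to layered double hydroxide particles (LDHs) that carry the dsRNA, and ctrl from buds that received LDHs alone. All 3 groups were emasculated 6 h after injection, kept unpollinated and collected on day 5. The label of ctrl calls it WT, all 3 labels call the ovaries detached, and the treatment protocol leaves the buds on the plant. Silencing was transient and left part of the target transcript. Since only small RNAs were counted, neither the tissue label nor the silencing of AGL6 and IAA9, both repressors of ovary growth before fertilization, was checked here.

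MicroRNAs of this group are known mainly from the nightshade family (Solanaceae) and act on genes of the immune receptors that recognise pathogens. miR6022 and miR6023 have been linked to receptor-like proteins of the Cf-9 type at the cell surface, and miR6024, miR6026 and miR6027 to intracellular receptors with a nucleotide-binding site and leucine-rich repeats (NLRs). In tomato, miR6026 is also known to target DCL2 genes, which encode Dicer-like enzymes that make small RNAs. A plant miRNA of 22 nt can start the production of secondary, phased siRNAs from the transcript it cuts, whereas most plant miRNAs are 21 nt long. The transcripts of these receptors and the secondary siRNAs were not analysed here.

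Mature sequences were at hand for 2 of the 6 members, taken from the sequence lists published with the libraries. They are shown because both were called lower in AGL6sil than in ctrl. They are written 5′ to 3′, with bases 2 to 8, the seed, in capitals. The targets of sly-miR6027-5p were not analysed, so action on NLR genes is not assigned to this arm here. For comparison, 2 miRNAs of families that act on NLR genes follow the 2 members.
sly-miR6024: uUUUAGCAagaguuguuuuacc
sly-miR6027-5p: aUGGGUAGcacaaggauuaaug
sly-miR482a: uUUCCAAUuccacccauuccua
sly-miR5300: uCCCCAGUccaggcauuccaac

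Both members were 22 nt long, as were sly-miR482a and sly-miR5300. The other sequences at hand from the miR482 family, sly-miR482d-5p and sly-miR482e-5p, had 21 nt. Among the 46 known miRNAs with a sequence here, a list chosen by their change in these libraries and no background, 37 had 21 nt and 7 had 22 nt. sly-miR6024 began with U and had a GC content of 31.8%, with 10 of its bases being U. sly-miR6027-5p began with A and had a GC content of 40.9%. The 2 members did not share a seed, and no other sequence among the 46 held the seed of either. In the best ungapped alignment sly-miR6024 and sly-miR6027-5p had 9 identical bases, with 5 in a row at most. sly-miR6024 had 8 identical bases with sly-miR482a and 8 with sly-miR5300, and sly-miR6027-5p had 8 and 9. For scale, sly-miR482a and sly-miR5300 had 15 identical bases with each other. The members shown thus shared a length but not a seed.

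In RefSeq's genes for SLM_r2.1, a tomato assembly that was used here for names and neighbours only, genes were found for 4 of the 5 listed numbers. MIR6022 and MIR6023 each overlapped an annotated protein-coding gene (LOC112940370 and LOC138340540), MIR6026 overlapped a lncRNA gene (LOC138339481), and MIR6024 overlapped none. Whether the counting kept the strands apart is not given in the sources used here. None of the 4 lay next to another miRNA gene, with at least 164 genes in between. MIR6025, which had a gene in this table, had 1 gene between it and MIR5300.

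The 6 members together had 3952 reads in ctrl, 5344 in AGL6sil and 3979 in IAA9sil. The 3 libraries held between 1038064 and 1460919 counted miRNA reads, of which sly-miR162 alone took between 34.8% and 44.2%. Expressed as a share of all counted miRNA reads, the members together made up 0.366% in AGL6sil (95% Clopper-Pearson interval 0.356% to 0.376%), 0.378% in IAA9sil (0.366% to 0.390%) and 0.381% in ctrl (0.369% to 0.393%). These 3 intervals overlap, which is not a test of the difference, and none was made. With sly-miR162 left out of the total the share was 0.655% (0.638% to 0.673%), 0.649% (0.629% to 0.669%) and 0.584% (0.566% to 0.602%), and ctrl was then the lowest. On the median scale used for the ratios below, the summed reads had a log2 ratio to ctrl of −0.65 in AGL6sil and −0.21 in IAA9sil, so the direction of the sum depends on the scale. Intervals here and below cover counting error only and take each read as independent. PCR copies of a molecule were not told apart, so the intervals may be too narrow even for that. With 1 library per condition every comparison is between these libraries and has no replicate check. In a pool of whole ovaries, fewer cells that make a miRNA and less of it per cell cannot be told apart.

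sly-miR6027-3p, the more abundant arm of an NLR-directed miRNA, was the most abundant member in each library. It had 1861 reads in ctrl, 2684 in AGL6sil and 1487 in IAA9sil. Among the 125 known miRNAs it ranked 33, 27 and 37 in the same order of libraries. As CPM, the count scaled to a common total of counted miRNA reads, its level was 1793, 1837 and 1412. On this scale AGL6sil and ctrl were close, with overlapping intervals (1768 to 1908 and 1712 to 1876), and IAA9sil was lower (1341 to 1486).

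sly-miR6022, which acts on receptor-like protein genes, had 755 reads in ctrl, 1717 in AGL6sil and 792 in IAA9sil. As CPM, AGL6sil stood above the other libraries, at 1175 against 752 in IAA9sil and 727 in ctrl. The intervals of IAA9sil (701 to 806) and ctrl (676 to 781) overlapped. On the median scale used for the ratios below, the log2 ratio of AGL6sil to ctrl was 0.10, with an interval that included 0 (−0.03 to 0.22). AGL6sil was instead the lowest library for sly-miR6027-5p, with 1067 reads in ctrl, 494 in AGL6sil and 1251 in IAA9sil. In AGL6sil it stood at 338 CPM (309 to 369), below the 1188 CPM (1123 to 1256) of IAA9sil and the 1028 CPM (967 to 1091) of ctrl.

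sly-miR6026, the member that also targets DCL2, had 156 reads in ctrl, 386 in AGL6sil and 395 in IAA9sil. As CPM, its level was lowest in ctrl at 150 (128 to 176), against 264 (239 to 292) in AGL6sil and 375 (339 to 414) in IAA9sil. These 3 intervals did not overlap. On the median scale, its log2 ratio of AGL6sil to ctrl was 0.22, with an interval that included 0 (−0.06 to 0.49). sly-miR6024, a further miRNA of NLR genes, had 103 reads in ctrl, 60 in AGL6sil and 49 in IAA9sil. Here ctrl was the highest at 99.2 CPM, while the intervals of AGL6sil at 41.1 (31.3 to 52.9) and IAA9sil at 46.5 (34.4 to 61.5) overlapped and lay below that of ctrl.

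sly-miR6023, the other miRNA of receptor-like protein genes, was close to the limit of detection, with 10 reads in ctrl, 3 in AGL6sil and 5 in IAA9sil. Its total of 18 reads kept it below the limit of 50 reads over the 3 libraries that was required for a call, and the other 5 members passed.

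**Figure D1:**
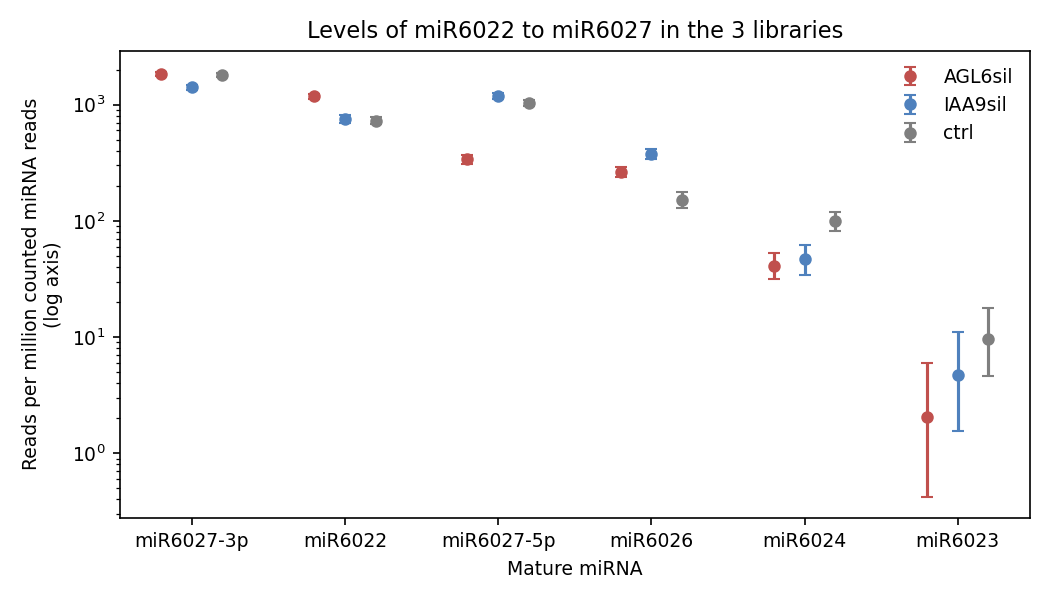
Level in CPM (log axis) of each member in AGL6sil, IAA9sil and ctrl, with 95% Clopper-Pearson intervals of the counts as bars. sly-miR6027-3p stands highest in each library and sly-miR6023 lowest, and sly-miR6027-5p is at 338 in AGL6sil while sly-miR6026 is lowest in ctrl at 150.

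Ordered by level, ctrl and IAA9sil gave the same sequence of members, from sly-miR6027-3p over sly-miR6027-5p, sly-miR6022, sly-miR6026 and sly-miR6024 down to sly-miR6023. In AGL6sil, sly-miR6022 and sly-miR6027-5p changed places. Neighbours in the order were apart by more than counting error in all 15 neighbour pairs, with 0 overlapping intervals. The counts were not divided by the length of the mature sequence, and the lengths of 4 members were not analysed here.

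Within the summed reads of the members, sly-miR6027-3p made up 47.1% in ctrl, 50.2% in AGL6sil and 37.4% in IAA9sil. The share of sly-miR6022 was 32.1% (30.9% to 33.4%) in AGL6sil against 19.9% (18.7% to 21.2%) and 19.1% (17.9% to 20.4%). sly-miR6027-5p made up 9.24% (8.48% to 10.1%) in AGL6sil, 31.4% in IAA9sil and 27.0% (25.6% to 28.4%) in ctrl. The share of sly-miR6026 was 3.95% (3.36% to 4.60%) in ctrl, 7.22% (6.54% to 7.95%) in AGL6sil and 9.93% (9.02% to 10.9%) in IAA9sil. These shares need no scaling between libraries, and they show that the summed reads were made up differently in each library.

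**Figure D2:**
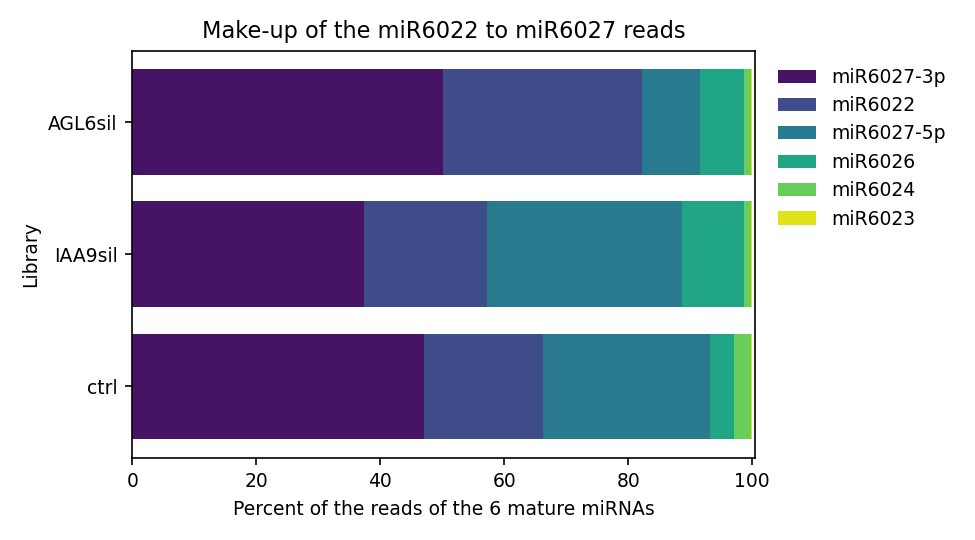
Percent of the summed reads of the 6 mature miRNAs held by each of them, per library, as stacked bars to 100%. sly-miR6022 takes 32.1% in AGL6sil against 19.1% in ctrl, and sly-miR6027-5p takes 9.24% against 27.0%.

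To find out whether members differed between silenced and mock-treated ovaries, counts were divided by the median count of each library over all listed miRNAs, as in the study, and expressed as the log2 ratio to ctrl. A member was called where it had at least 50 reads in total and a log2 ratio of at least 1.5 in size, which is 2.83-fold. With this scale, 2 of the 5 members past the read limit were called in AGL6sil, sly-miR6027-5p and sly-miR6024, both lower than ctrl, and 0 were higher. Of all 374 listed miRNAs that passed this limit, 21.4% were called in AGL6sil in either direction and 13.6% as lower, and of the 91 known ones 42.9% were called lower. The 2 of 5 members were near the share of the known miRNAs, which is not a result about the members.

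The log2 ratio of sly-miR6027-5p in AGL6sil was −2.20 (−2.36 to −2.05), which is a level of 0.217 times that in ctrl. Its whole counting interval lay past the threshold. That of sly-miR6024 was −1.87 (−2.35 to −1.40), and its interval reached across the threshold. sly-miR6023, left out of the calls for its few reads, had a ratio of −2.83 with an interval from −5.33 to −0.87.

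The other members past the read limit lay closer to ctrl in AGL6sil. sly-miR6027-3p had a log2 ratio of −0.56 (−0.65 to −0.48). sly-miR6022 at 0.10 (−0.03 to 0.22) and sly-miR6026 at 0.22 (−0.06 to 0.49) had intervals that included 0. The median of the 5 members was −0.56, beside −1.20 for the 91 known miRNAs, 0.08 for the 283 predicted ones and −0.12 for all 374.

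In IAA9sil 0 of the 5 members were called. There 6.95% of all 374 were called in either direction, and 6.59% of the 91 known ones as lower. The log2 ratio farthest from 0 was that of sly-miR6024, at −1.29 (−1.81 to −0.78). sly-miR6026 was higher than ctrl at 1.12 (0.85 to 1.40), a 2.18-fold difference. sly-miR6027-3p was lower at −0.54 (−0.64 to −0.44), sly-miR6022 stood at −0.15 and sly-miR6027-5p at 0.01 (−0.11 to 0.13). The few reads of sly-miR6023 gave −1.22, with an interval from −3.11 to 0.47. The members had a median of −0.15 in IAA9sil, beside −0.02 for the known ones and −0.05 for all 374. The comparisons share ctrl, so an error in that library enters both. Both silenced libraries received dsRNA, whereas ctrl received LDHs alone. In a difference from ctrl, exposure to dsRNA and silencing of the target therefore cannot be told apart.

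**Figure D3:**
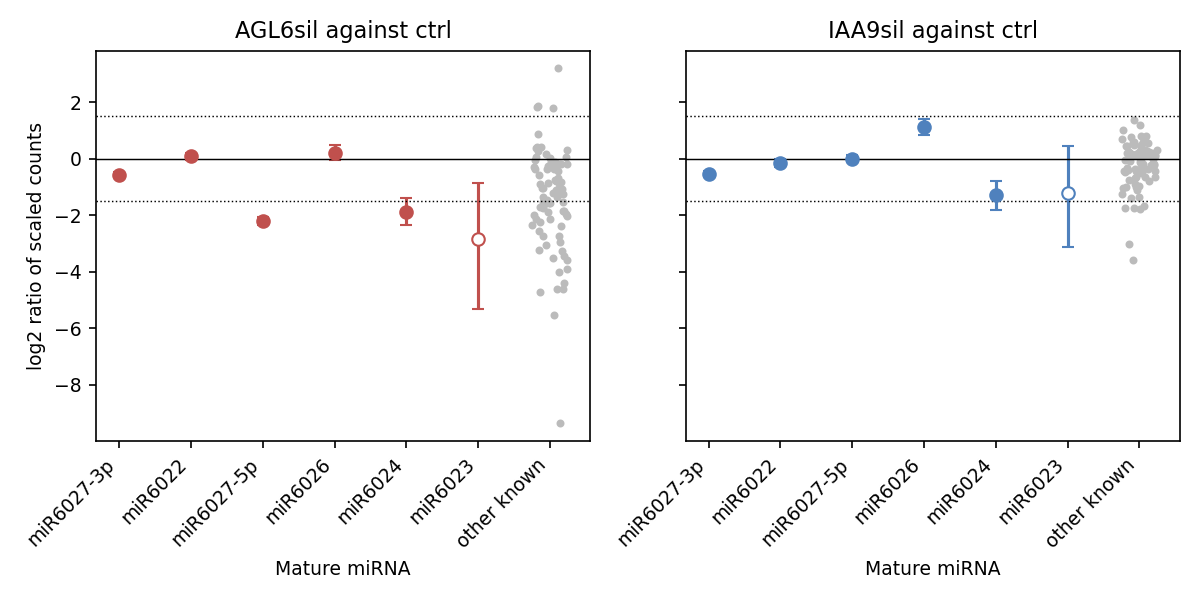
Log2 ratio of scaled counts to ctrl for each member, with 95% counting intervals, and for the other known miRNAs with at least 50 reads (grey points, spread sideways at random). Dotted lines mark 1.5 and −1.5, and the open symbol is sly-miR6023 with 18 reads in total. In AGL6sil sly-miR6027-5p (−2.20) and sly-miR6024 (−1.87) lie below the lower line, inside the range of the grey points, and in IAA9sil no filled symbol passes a line.

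The silenced libraries were also compared with each other, without ctrl. In AGL6sil 1 of the 5 members was called against IAA9sil, sly-miR6027-5p, with a log2 ratio of −2.21 (−2.37 to −2.06). In this comparison 21.4% of the 374 were called in either direction and 12.8% as lower, and 35.2% of the known ones were lower. sly-miR6026 was lower in AGL6sil than in IAA9sil at −0.91 (−1.11 to −0.70), sly-miR6024 at −0.58 (−1.15 to −0.01), sly-miR6022 was higher at 0.24 (0.12 to 0.37), and sly-miR6027-3p at −0.02 (−0.11 to 0.07) had an interval that included 0.

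The scale for library size decided part of these values. The median over all listed miRNAs divides AGL6sil by 2.13 relative to ctrl and IAA9sil by 1.16. For AGL6sil, other scales gave factors of 1.99 (median of ratios of DESeq2), 1.88 (TMM of edgeR), 1.41 (total of the counted reads), 0.857 (clean reads of each library) and 0.762 (median of the known miRNAs). For IAA9sil these factors lay between 0.916 and 1.12. A change of scale moves every member by the same amount.

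Counting the unscaled libraries as well, 7 scales were compared. Only the values of the ratios were compared, without counting intervals, so a direction given by a value near 0 may lie within counting error. sly-miR6027-5p was lower than ctrl in AGL6sil under all 7, from −2.20 to −0.72, and past the threshold under 4. sly-miR6024 was lower under all 7 in both silenced libraries, from −1.87 to −0.39 in AGL6sil, past the threshold under 3, and from −1.29 to −0.95 in IAA9sil, past it under 0. sly-miR6026 was higher than ctrl under all 7 in both, with values from 0.22 to 1.70 in AGL6sil, past the threshold under 2, and from 1.12 to 1.47 in IAA9sil, past it under 0.

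sly-miR6022 was higher in AGL6sil under all 7 scales, from 0.10 to 1.58, and had no fixed direction in IAA9sil, from −0.15 to 0.20. The direction of sly-miR6027-3p in AGL6sil was lower under 3 scales and higher under 4, from −0.56 to 0.92, whereas in IAA9sil it was lower under all 7. With the median of the known miRNAs as the scale, no member was called lower in AGL6sil and sly-miR6022 and sly-miR6026 were called higher. With the clean reads only sly-miR6026 was called, as higher. The share of all miRNAs called under these other scales is not given here, so these calls are not read as particular to the members. On the median scale over all listed miRNAs, the counting intervals of sly-miR6022 and sly-miR6026 in AGL6sil included 0, so on that scale a difference from ctrl was not detectable at this depth.

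**Figure D4:**
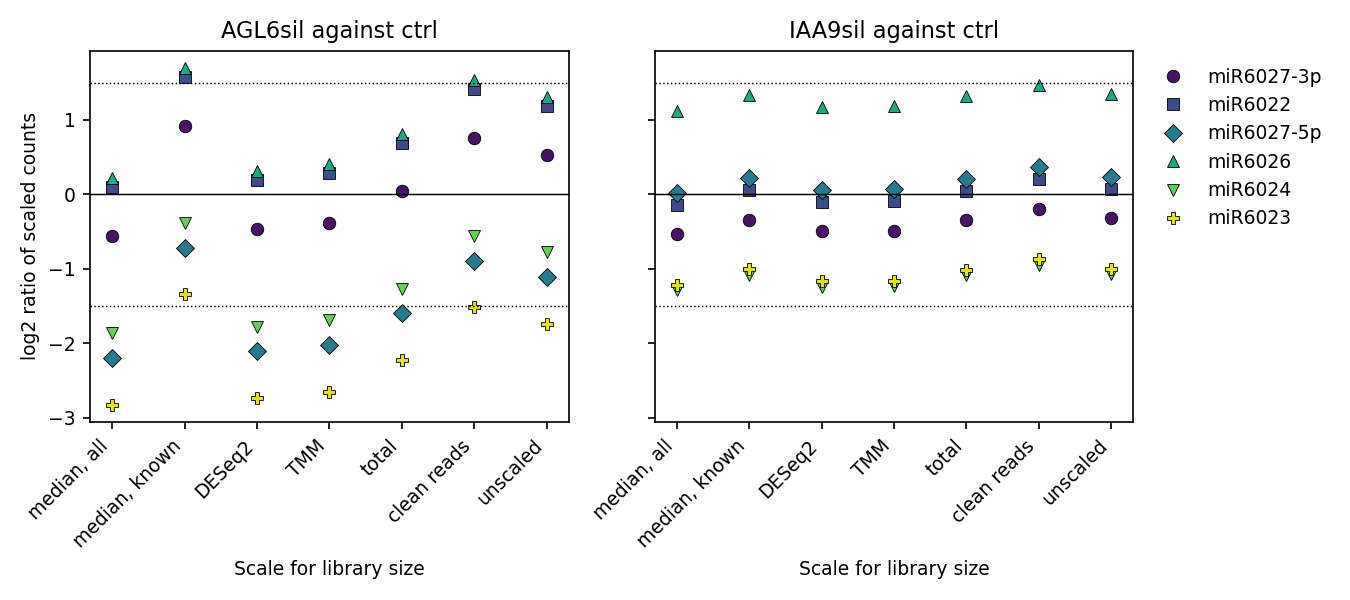
Log2 ratio to ctrl of each member under 7 scales for library size, in AGL6sil and in IAA9sil, with dotted lines at 1.5 and −1.5. In AGL6sil all members shift together, so that sly-miR6027-5p moves from −2.20 to −0.72 and sly-miR6026 from 0.22 to 1.70, and in IAA9sil the scales differ little.

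The precursor of miR6027 offers a comparison that needs no scale, since both arms were counted in the same library. The arm with fewer reads over the 3 libraries, sly-miR6027-5p, made up 15.5% (14.3% to 16.9%) of the reads of both arms in AGL6sil, 45.7% (43.8% to 47.6%) in IAA9sil and 36.4% (34.7% to 38.2%) in ctrl. The 3 intervals did not overlap. For each 100 reads of sly-miR6027-3p there were 57.3 reads of sly-miR6027-5p in ctrl, 18.4 in AGL6sil and 84.1 in IAA9sil. Relative to ctrl this was a log2 change of −1.64 in AGL6sil (exact conditional interval −1.82 to −1.46) and of 0.55 (0.40 to 0.71) in IAA9sil. Between the silenced libraries the change was −2.19 (−2.37 to −2.01).

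The same measure was taken for the other 15 known precursors that had at least 50 reads for each arm over the 3 libraries. Minor and major arms were set from the reads of all 3 libraries, those compared included, so the comparison was repeated with arms taken by name, as 5p per 3p, an alternative chosen after seeing the data. By name, the ratio was lower in AGL6sil than in ctrl for 11 of the 15 and higher for 4, with a median log2 change of −1.55 and a range from −3.84 to 7.50, a value that rests on 1 read. By minor and major arm it was lower for 10 and higher for 5. miR6027 at −1.64 lay near the median, and 6 precursors had a lower value by either labelling. In IAA9sil the 5p per 3p ratio was lower for 7 and higher for 8 of the 15, with a median of 0.03 and a range from −1.93 to 1.85, and 3 precursors had a higher value than the 0.55 of miR6027. The lower share of sly-miR6027-5p in AGL6sil thus lay within the spread of the other precursors.

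**Figure D5:**
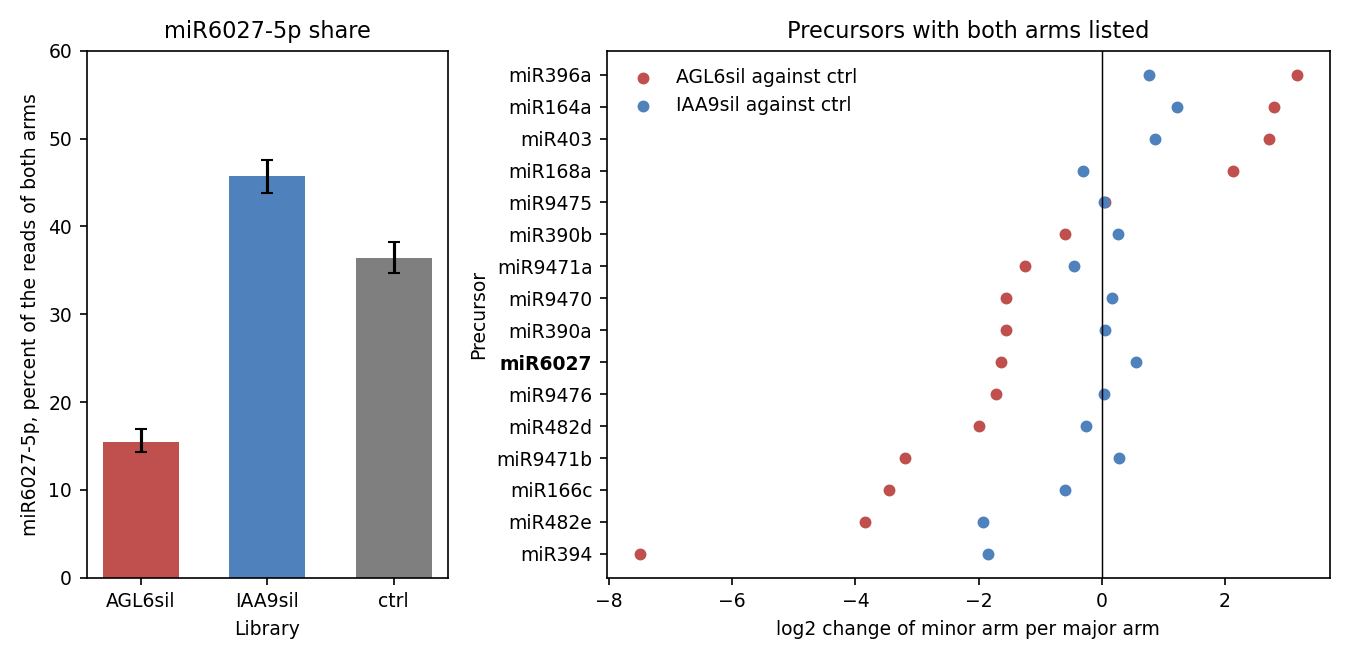
Left, share of sly-miR6027-5p among the reads of both miR6027 arms per library, with 95% Clopper-Pearson intervals. Right, log2 change of the minor arm per major arm against ctrl for the 16 known precursors compared, sorted by AGL6sil, where miR6027 (bold) stands at −1.64 in AGL6sil and 0.55 in IAA9sil and 11 of the 16 lie below 0 in AGL6sil.

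Ratios between members of different precursors do not depend on the scale either. The 5 members past the read limit form 9 such pairs. The exact conditional interval of the change excluded 0 for 7 pairs in AGL6sil against ctrl and for 8 in IAA9sil against ctrl. Between the silenced libraries it did so for 7. These pairs reuse the same 5 members, and the share among pairs of other known miRNAs is not given here. Nothing particular to the members is therefore read from these counts. For each 100 reads of sly-miR6022 there were 20.7 reads of sly-miR6026 in ctrl, 22.5 in AGL6sil and 49.9 in IAA9sil. AGL6sil and ctrl did not differ beyond counting error in this ratio, with a log2 change of 0.12 (−0.18 to 0.43), and IAA9sil was higher than ctrl by 1.27 (0.96 to 1.58).

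Relative to both of these, sly-miR6024 was lower in the silenced libraries. It had 13.6 reads for each 100 of sly-miR6022 in ctrl, 3.49 in AGL6sil and 6.19 in IAA9sil. Against sly-miR6026 it had 66.0 reads per 100 in ctrl, 15.5 in AGL6sil and 12.4 in IAA9sil. These were log2 changes of −2.09 (−2.64 to −1.53) in AGL6sil and −2.41 in IAA9sil, whose interval also excluded 0. The silenced libraries did not differ in this ratio beyond counting error (0.33, −0.28 to 0.94). Both act on NLR genes, and sly-miR6024 had fewer reads than sly-miR6026 in each library, ctrl included.

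Other families that act on NLR genes were represented by 8 listed members of miR482 and miR5300, both arms where listed, all past the read limit. Which arm acts on NLR genes was not checked here. In AGL6sil 3 of the 8 were called lower than ctrl and 1 higher, with a median log2 ratio of −0.47, and in IAA9sil 1 was called, as lower, with a median of 0.00. Called lower in AGL6sil were sly-miR5300 and the 5p arms sly-miR482d-5p (−2.56) and sly-miR482e-5p (−4.01). The call in IAA9sil was sly-miR482e-5p (−1.75). Of the 91 known miRNAs 42.9% were lower in AGL6sil and 6.59% in IAA9sil, so these counts are near the background. The most abundant of them, sly-miR482e-3p, had a log2 ratio of −0.17 in AGL6sil and 0.18 in IAA9sil. Values of this list in AGL6sil ran from −4.01 to 1.79, with 7 of the 8 below 0. Those of the 5 members past the read limit ran from −2.20 to 0.22, and the intervals of the 2 above 0 included 0. The families of the silencing machinery, miR162, miR168 and miR403, which act on DCL1 and ARGONAUTE genes, had 6 listed members, both arms where listed. Which arm acts on these genes was not checked here. In AGL6sil 4 of the 6 were called lower and 0 higher, with a median of −1.73, beside 42.9% called lower and a median of −1.20 among the 91 known miRNAs. The 4 were both arms of miR168a and of miR403, with the lowest values at sly-miR403-5p (−4.41) and sly-miR168a-3p (−3.89). In IAA9sil 0 were called, with a median of −0.51. With so few members, nothing particular to this list is read from these counts. Their most abundant member, sly-miR162, had ratios of −0.25 and 0.07.

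Similarity of pattern was measured as the distance between pairs of log2 ratios to ctrl, over 3 libraries and 86 other known miRNAs past the read limit, which rests on very few points. Nearest to sly-miR6027-3p were sly-miR482b (distance 0.25) with 10757 reads in ctrl, 17754 in AGL6sil and 9600 in IAA9sil, and sly-miR5302b-5p (0.35) with 21, 24 and 18. Nearest to sly-miR6022 were sly-miR159 (0.15), with log2 ratios of 0.17 and −0.01, and sly-miR9471b-3p (0.16), with −0.03 and −0.05. sly-miR6027-5p was closest to sly-miR167b-5p (0.16), which had 53, 22 and 62 reads, and to sly-miR9470-5p (0.19), with 27, 11 and 31. The last 2 were counted far less often than sly-miR6027-5p.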

How the data were processed

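Small RNA of 3 ovary pools was sequenced as 1 library per condition, and samples were assigned to AGL6sil, IAA9sil and ctrl from the treatment labels. The deposited values are raw read counts per mature miRNA, for which the authors filtered reads, mapped them to the genome with Bowtie (also named in the submitters' processing notes), matched them to miRBase or, for predicted miRNAs, to hairpins found with miREvo and mirdeep2, and counted them with custom scripts, without normalization. The genome build is not given in the sources used here. The counts hold only the reads on mature miRNAs, so their totals (1038064 to 1460919) are not the sequencing depth, and a value of 18 reads is far less precise than one of 6032.

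Counts were divided by the library median over all 634 miRNAs relative to ctrl. Each ratio to ctrl carries a 95% interval from the Clopper-Pearson bounds on how its reads split between the libraries, and arm and member ratios exact conditional intervals. No test between conditions was made, as each had 1 library. Calls needed at least 50 reads in total and a log2 ratio of at least 1.5 in size. Named are all members, the 2 known miRNAs nearest to each of the 3 most abundant members, and the most abundant miRNA of each pathway list. Outside this rule, sly-miR482a and sly-miR5300 were chosen for their sequences after values were seen, and the sequences of sly-miR482d-5p and sly-miR482e-5p are not shown. The miRNAs called lower in the pathway lists were also named after values were seen. Members and lists were chosen with earlier results of these data known. The alternatives were 6 other scales, no read filter, a filter on the larger library, a pseudocount of 1, a 1.5-fold threshold, whole intervals past the threshold and other totals. The clean reads per library, used as a scale only, come from the paper. The calculation was run on simulated data with counting noise only and as many miRNAs raised as lowered. That setting cannot test which scale suits these libraries. Python 3.11.15, numpy 2.4.6, scipy 1.17.1, pandas 2.3.3, R 4.3.3, DESeq2 1.42.0 and edgeR 4.0.16 were used.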

Additional observations from a re-analysis of the deposited data

How the results depend on the processing

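The scale for library size, the read filter, the threshold and the total behind a share changed results. A change of scale shifts all members by one amount, which explains its effect by construction. Of 2 members called as lower in AGL6sil against ctrl, 2 stayed so with DESeq2 or TMM, 1 with the total count, 1 with whole intervals past the threshold and 0 without scaling. With the median of the known miRNAs 2 others were called, as higher, and with the clean reads 1, as higher. Against IAA9sil, the 1 call in AGL6sil became 1 call of another member, as higher, with the known median, 0 with the clean reads or without scaling, and 2 without a filter or at 1.5-fold. In IAA9sil against ctrl 2 members passed at 1.5-fold and 0 otherwise. The share of all listed miRNAs called under each of these other settings is not given here. Nothing particular to the members is therefore read from these counts.

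The median log2 ratio of the members in AGL6sil against ctrl was −0.38 with TMM, 0.04 with the total, 0.53 without scaling, 0.75 with the clean reads, 0.92 with the known median and −1.22 without a filter, which adds sly-miR6023. In IAA9sil it was 0.05 (total), 0.06 (known median), 0.07 (no scaling), 0.20 (clean reads) and −0.34 (no filter). Between the silenced libraries it was −0.45 (TMM), −0.18 (total), 0.29 (no scaling), 0.39 (clean reads), 0.70 (known median) and −0.75 (no filter). The summed share of the members was 0.383% of the known reads in AGL6sil. It was 0.0209%, 0.0146% and 0.0132% of the clean reads in AGL6sil, IAA9sil and ctrl, and 0.655%, 0.649% and 0.584% of the counted reads without sly-miR162, so that on these totals ctrl was the lowest. Of 126 member ratios under other scales or a pseudocount of 1, 68 stayed within the counting interval and 58 moved out of it, and 0 called ones changed sign. Adding 1 read to each arm of miR6027 left its shares within their intervals. Leaving out a replicate was not possible, and no paired analysis was possible because each condition had 1 library. Depth limits sly-miR6023 most, with 18 reads.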
